A study of Mus musculus with 4 samples.

Results

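In the neural stem cell (NSC) line XN1, *Otx2*, a homeobox gene of the forebrain and midbrain, and *Hoxa5*, a Hox gene of the anterior spinal cord, were both captured. The cells described here were chosen by their own reads of these genes. *Otx2* cells had at least 1 read of *Otx2* and no read of *Hoxa5*, and *Hoxa5* cells had at least 1 read of *Hoxa5* and no read of *Otx2*. Of 14452 XN1 cells, 985 were *Otx2* cells and 3546 were *Hoxa5* cells, together 4531. A further 469 cells had reads of both genes and 9452 had reads of neither. The reads of *Otx2* and *Hoxa5* themselves are therefore given as a description, and the comparison concerns the other genes.

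XN1 (cell line X1C) was derived from mouse 129/Sv epiblast stem cells. The medium held the growth factors EGF and FGF2 at 10 ng/ml each and the Wnt inhibitor XAV939 at 10 µM, in a preparation from supplier A that formed precipitates. The study set this line beside XN4, made with 10 µM XAV939 from supplier B, and KN1, made with neither a Wnt inhibitor nor a Wnt activator. It also included CN4, made with 2 µM of the Wnt activator CHIR99021. All of these lines had the same strain and growth factors. XN1 was a single line sequenced as 1 BD Rhapsody library, so cells of XN1 are not replicates, no test was made, and the exact 95% binomial intervals given below cover counting error only.

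Along the neural tube, *Otx2* marks the forebrain and midbrain and ends at the midbrain-hindbrain boundary, where *En1*, *En2*, and FGF feedback genes are active. Hox genes begin behind this boundary and add up posteriorly, with *Hoxa2* to *Hoxa4* in the hindbrain and *Hoxa5* from the posterior hindbrain into the spinal cord. In the embryo, cells with *Otx2* and cells with *Hoxa5* thus lie apart and differ in many other region genes. The comparison asked whether single XN1 cells with one of these transcripts also differed in the others.

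The gene *Otx2* lies on chromosome 14 (48657677 to 48673819, minus strand, GRCm38) and *Hoxa5* on chromosome 6 (52201754 to 52204587, minus strand). *Hoxa5* lies inside the longer transcription unit of *Hoxa3* (52169062 to 52213336) on the same strand, and how the counting divided reads between them is not known from the table. An antisense RNA, *Otx2os1*, overlaps the 5′ part of *Otx2*, and it was captured in 0.329% of *Otx2* cells and 0.240% of *Hoxa5* cells. *Hoxa5* is also overlapped by *Gm28308* on the same strand, captured in 0.329% of *Otx2* cells and 0.720% of *Hoxa5* cells. The antisense RNA *Hoxaas3* overlaps *Hoxa5* as well, and it was captured in 1.97% and 1.62%. The bases before a RefSeq start of each gene (GRCm38.p6, minus strand, written 5′ to 3′) are shown because these genes define the classes. *Otx2* has 4 listed starts, and the window shown is that of the start farthest 5′. Of the other 3 windows, which are not shown, that at chr14:48667509-48667758 held 1 CCAAT and the rest neither motif. Capitals mark CCAAT or TTTGAA on either strand, letters which are taken up again with the cell cycle genes.
Otx2, chr14:48667645-48667894: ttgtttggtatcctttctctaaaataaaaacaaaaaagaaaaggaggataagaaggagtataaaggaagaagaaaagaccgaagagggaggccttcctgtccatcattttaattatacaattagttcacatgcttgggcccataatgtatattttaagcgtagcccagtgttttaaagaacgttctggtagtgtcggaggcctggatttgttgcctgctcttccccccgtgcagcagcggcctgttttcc
Hoxa5, chr6:52204588-52204837: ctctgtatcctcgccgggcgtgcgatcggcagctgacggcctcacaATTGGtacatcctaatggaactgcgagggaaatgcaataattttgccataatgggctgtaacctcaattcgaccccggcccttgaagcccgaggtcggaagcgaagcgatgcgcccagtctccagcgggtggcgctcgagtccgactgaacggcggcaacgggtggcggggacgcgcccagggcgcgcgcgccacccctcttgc

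Membership rested on few reads. Among the *Otx2* cells, 732 had exactly 1 *Otx2* read, 189 had 2 reads, and 64 had 3 or more, up to 6. Among the *Hoxa5* cells, 2339 had exactly 1 *Hoxa5* read, 752 had 2 reads, and 455 had 3 or more, up to 9. A cell just outside the rule, with 0 reads, may still hold the transcript: 12998 XN1 cells had no *Otx2* read and 10437 had no *Hoxa5* read. In all of XN1, *Otx2* was captured in 10.1% of cells (interval 9.58% to 10.6%) and *Hoxa5* in 27.8% (27.1% to 28.5%). In XN4, sequenced to a median of 12615 reads per cell against 5981.5 in XN1, *Otx2* was captured in 0.378% of cells and *Hoxa5* in 0.400%. In CN4, at a median of 9173 reads, *Otx2* was captured in 0.0496% of cells and *Hoxa5* in 58.7%. Each gene was thus captured more often in XN1 than in a deeper line in which it was nearly absent.

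Both classes had like depth. The median was 6662 reads and 2592 genes in *Otx2* cells, and 6763 reads and 2597 genes in *Hoxa5* cells. Cells with both genes were deeper, with a median of 7885 reads, and cells with neither were shallower, with 5563.5. Mitochondrial transcripts made up a median of 13.9% of the reads in *Otx2* cells and 13.9% in *Hoxa5* cells, and the normalized table held 25.2% and 27.7% of them. To compare cell fractions, every cell was thinned at random to 3600 reads, which kept 912 *Otx2* cells, 3332 *Hoxa5* cells, 457 cells with both, and 7893 with neither, and left out 73, 214, 12, and 1559 shallower cells. After thinning, the median number of genes per cell was 1769 in *Otx2* cells and 1768.5 in *Hoxa5* cells. All cell fractions below refer to thinned cells with at least 1 read of a gene, unless stated otherwise. XN1 shared 139 cell barcodes with XN4 and 320 with CN4.

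Across the genome, the classes were close to each other. At a mean cell fraction of at least 5%, 7863 genes were compared, besides *Otx2* and *Hoxa5*. The ratio of the cell fraction in *Otx2* cells to that in *Hoxa5* cells had a median of 0.996, and its 5th and 95th percentiles were 0.837 and 1.20. A fraction at least 1.5 times as high in *Otx2* cells was found for 6 genes (0.0763% of those compared), and at least 1.5 times as high in *Hoxa5* cells for 17 genes (0.216%). A fraction at least 25% higher was found for 207 genes in *Otx2* cells (2.63%) and 203 in *Hoxa5* cells (2.58%). The counts of listed genes below are to be read against these shares, under which a short list would hold few or none. With the random thinning replaced by the expected fraction over all thinnings, 2 genes were past 1.5 times in *Otx2* cells and 0 in *Hoxa5* cells. Within 20 strata of total reads, without thinning, they were 8 and 3. The class with more such genes thus differed between these settings, and the cause was not tested. None of the 15 genes with the largest ratio in either direction was on a list of region genes. Few region genes reached the mean fraction of 5% among these 7863 genes, such as 5 forebrain and midbrain genes and 2 *Hoxa* genes. Their absence from the 15 therefore says little about region genes.

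**Figure D1:**
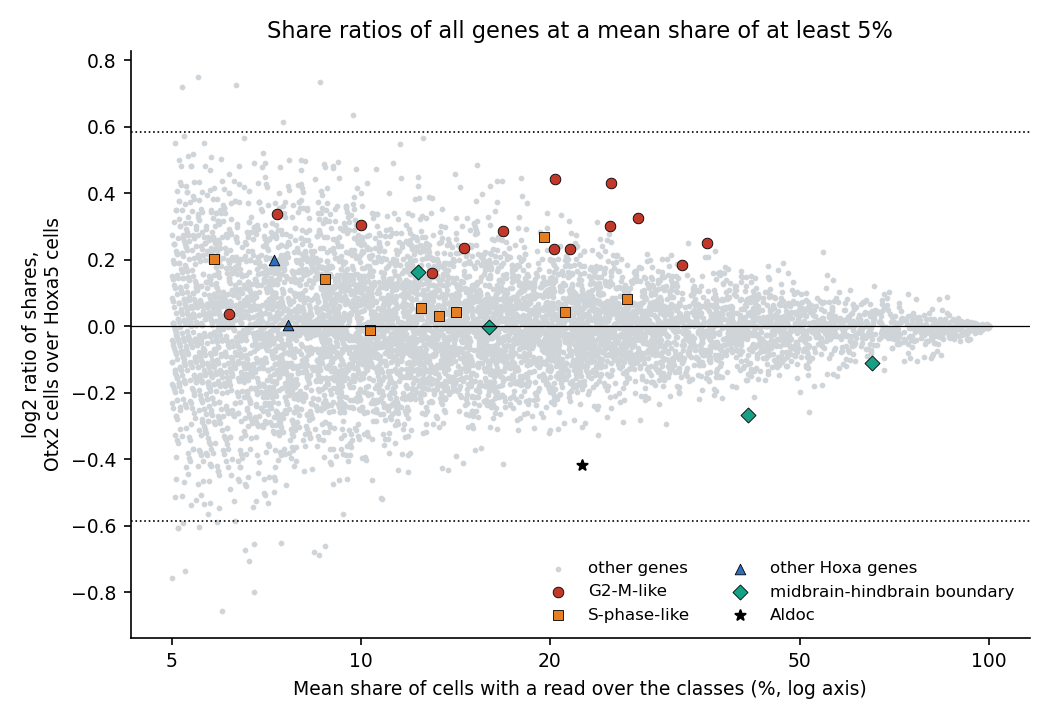
Each point is a gene, with its mean cell fraction over *Otx2* cells and *Hoxa5* cells (log axis) against the log2 ratio of these fractions. Dotted lines mark 1.5-fold. Genes spread more widely at low fractions, all 14 G2-M genes lie above 0, and *Hoxa* and boundary genes lie among the other genes, except *Spry1* and *Spry2* at the lower edge.

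The forebrain and midbrain genes were captured at like rates in the classes. *Otx1*, the paralog of *Otx2*, was captured in 9.98% of *Otx2* cells (8.11% to 12.1%) and 9.87% of *Hoxa5* cells (8.88% to 10.9%). It was captured in 11.4% of cells with both genes and 9.26% of cells with neither, values that lie close together. *Wnt7b*, a Wnt ligand, was captured in 6.47% and 6.0% of *Otx2* and *Hoxa5* cells. The POU factor *Pou3f4* was captured in 22.5% and 20.8%, and the nuclear receptor *Nr2f1* in 18.2% and 18.3%. *Tcf7l2*, a transcription factor of the Wnt pathway that is high in the caudal forebrain, was captured in 28.5% and 31.2%. Of 35 listed genes, 31 were in the table and 5 had a mean fraction of at least 5%, of which 0 were at least 25% higher in either class. This count lies near the shares over all genes, 2.63% in *Otx2* cells and 2.58% in *Hoxa5* cells. The median ratio of the 5 listed genes was 1.01.

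Rarer forebrain genes had wide intervals. *Lhx2*, a LIM homeobox gene of the forebrain, was captured in 2.30% of *Otx2* cells (1.43% to 3.50%) and 1.35% of *Hoxa5* cells (0.987% to 1.80%). *Barhl2*, a homeobox gene of the diencephalon, was captured in 1.86% and 1.23%, and *Zic5* went the other way with 3.62% and 4.74%. The intervals of these genes overlapped between classes. Where a gene had no read in a class, the limit that a count of 0 allows (3 cells) was 0.329% of *Otx2* cells and 0.0900% of *Hoxa5* cells. This limit is one-sided, and the exact 95% intervals of such a gene reached 0.404% and 0.111%. *Emx1* had no read in either class after thinning, and *Emx2* had none in *Otx2* cells and was in 0.15% of *Hoxa5* cells. At least 1 gene of the list was captured in 64.1% of *Otx2* cells (60.9% to 67.3%) and 66.0% of *Hoxa5* cells (64.4% to 67.6%). Without the widely captured *Tcf7l2*, *Nr2f1*, and *Pou3f4*, a set chosen after their values were seen, the fractions were 22.9% and 24.1%.

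The *Engrailed* genes of the midbrain-hindbrain boundary did not follow either class. *En1* was captured in 16% of *Otx2* cells (13.7% to 18.6%) and 16% of *Hoxa5* cells (14.8% to 17.3%). *En2* was captured in 13.0% of *Otx2* cells (10.9% to 15.4%) and 11.6% of *Hoxa5* cells (10.6% to 12.8%), and in 12% of cells with neither gene. Either of the pair was captured in 26.5% and 25.4% of *Otx2* and *Hoxa5* cells. *Cnpy1*, an FGF signaling gene of the boundary, was captured in 4.06% and 3.81%, and the LIM homeobox gene *Lmx1b* in 2.74% and 2.31%. *Gbx2*, which sets the boundary from the hindbrain side against *Otx2* in the embryo, was captured in 0.658% of *Otx2* cells (0.242% to 1.43%) and 1.08% of *Hoxa5* cells (0.758% to 1.49%). At this depth no difference in *Gbx2* was detectable. *Fgf8*, the signal of the boundary, had no read in either class, and *Pax2*, *Pax5*, *Pax8*, and *Wnt1* were each in at most 0.110% of a class.

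The FGF feedback inhibitors on the boundary list had a lower fraction in *Otx2* cells. *Spry1* was captured in 37.6% of *Otx2* cells (34.5% to 40.8%) and 45.2% of *Hoxa5* cells (43.5% to 46.9%), a ratio of 0.832. In cells with both genes it was in 39.4%, and in cells with neither in 43.9%. *Spry2* was captured in 62.7% (59.5% to 65.9%) and 67.8% (66.2% to 69.4%), and was in 67.8% of cells with neither gene. The intervals of the classes did not overlap for either gene, while those of *En1* and *En2* on the same list did. How many of all genes compared had intervals apart was not counted. For *Spry1* the difference of −7.62 percentage points was −8.15 within strata of like total reads and −8.99 among cells with no read of *Mki67* or *Top2a*. For *Spry2* the difference was −5.05 points, and −0.838 in the cells of the normalized table alone. *Sp5*, a target of Wnt and FGF signaling, was captured in 3.40% of *Otx2* cells (2.32% to 4.79%) and 2.19% of *Hoxa5* cells (1.72% to 2.75%).

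**Figure D2:**
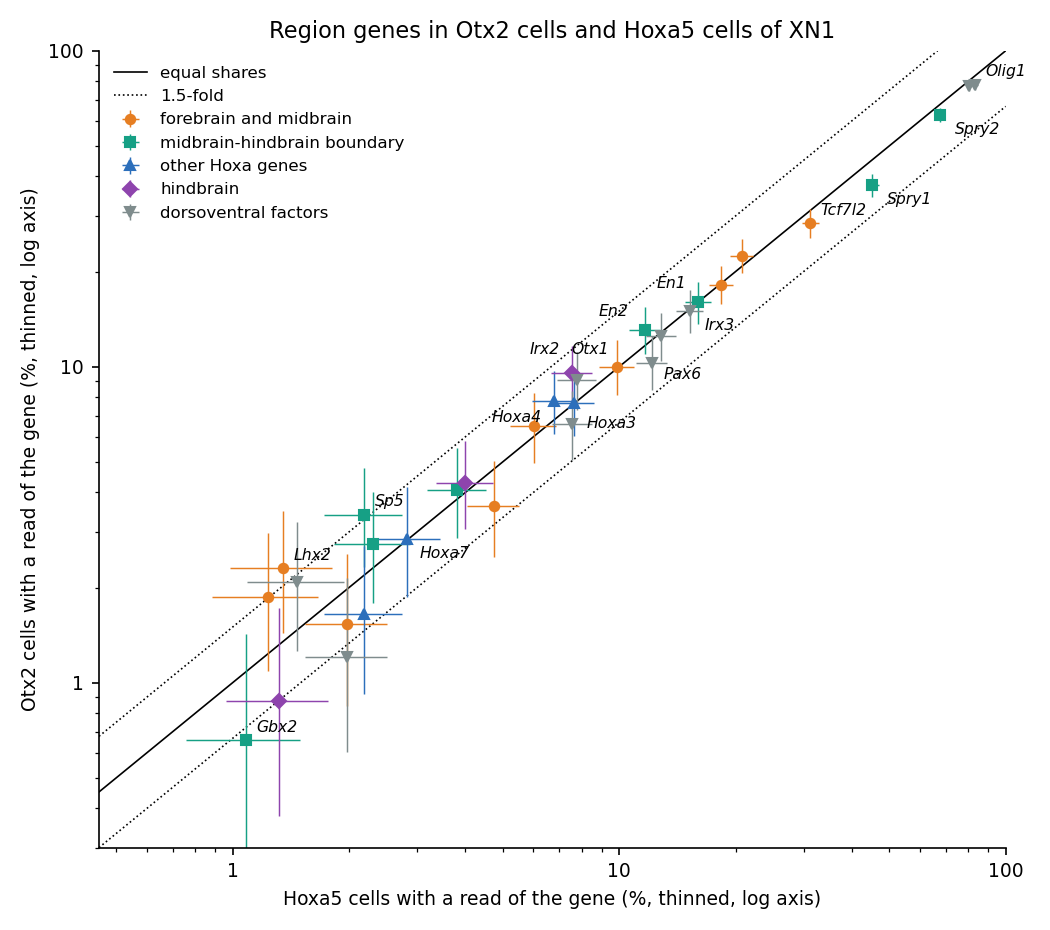
Fractions of thinned XN1 cells with a read of each region gene, *Hoxa5* cells on the x axis and *Otx2* cells on the y axis (both log axes, in %), for genes in at least 1% of either class. Bars are exact 95% intervals for counting error. Most genes lie near the line of equal fractions, *Spry1*, *Spry2*, and *Olig1* lie below it, and the genes off the line near 1% have wide bars.

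Other *Hoxa* genes were captured at like rates in the classes. *Hoxa3*, the anterior Hox gene whose unit spans *Hoxa5*, was captured in 7.68% of *Otx2* cells (6.03% to 9.60%) and 7.65% of *Hoxa5* cells (6.77% to 8.61%). *Hoxa4* was captured in 7.79% (6.13% to 9.72%) and 6.78% (5.95% to 7.69%), and *Hoxa7*, on the posterior side of *Hoxa5*, in 2.85% and 2.82%. *Hoxa2* was captured in 1.64% and 2.19%. *Hoxa9* and *Hoxa10* had no read in either class, and *Hoxa6* was in 0.0900% of *Hoxa5* cells. A read of at least 1 *Hoxa* gene besides *Hoxa5* was found in 20.3% of *Otx2* cells (17.7% to 23.0%) and 19% of *Hoxa5* cells (17.7% to 20.4%), and in 17.3% of cells with neither gene. Of 10 listed genes, 8 were in the table and 2 had a mean fraction of at least 5%, with 0 at least 25% higher in either class. Over all genes these shares were 2.63% in *Otx2* cells and 2.58% in *Hoxa5* cells, so 0 of 2 genes is uninformative.

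In CN4, cells with a *Hoxa5* read were set against all cells without one, which is not the contrast of the 2 classes of XN1. At 3600 reads per cell, a *Hoxa* gene other than *Hoxa5* was captured in 57.5% of 10531 CN4 cells with a *Hoxa5* read (56.6% to 58.5%) and 45% of 7083 without (43.8% to 46.2%). *Hoxa7* was in 45.2% of the former against 34.4% of the latter. *Hoxa3* was in 5.06% against 4.07%, and *Hoxa4* in 2.99% against 2.43%. CN4 cells with a *Hoxa5* read were deeper, with a median of 10305.5 reads against 7695. Within 20 strata of total reads, without thinning, a *Hoxa* gene other than *Hoxa5* was in 81.7% of CN4 cells with a *Hoxa5* read and 73.2% without, a difference of 8.45 points. The same contrast in XN1, all cells with a *Hoxa5* read against all without, gave 32.4% and 30.2%, a difference of 2.27 points. The lines differ in these base rates, so the point differences are not directly comparable. Within the strata, *Hoxa7* was in 71.1% and 60.5% of CN4 cells with and without a *Hoxa5* read. In XN1 it was in 5.31% and 4.73%. The comparison within strata was chosen after the thinned values were seen. In XN1, Hox genes of the *Hoxb*, *Hoxc*, and *Hoxd* clusters were in 0.219% of *Otx2* cells (0.0266% to 0.790%) and 0.30% of *Hoxa5* cells (0.144% to 0.551%). Of these 28 genes, 23 were in the table, and 0 were in 1% of either class.

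Genes of the hindbrain and cofactors of Hox proteins were compared next. *Egr2*, a factor of the hindbrain segments, was captured in 0.877% of *Otx2* cells and 1.32% of *Hoxa5* cells. *Irx2* was captured in 9.54% (7.71% to 11.6%) and 7.53% (6.66% to 8.48%), a ratio of 1.27. At least 1 hindbrain gene was in 20.0% (17.4% to 22.7%) and 19.1% (17.8% to 20.5%). Among the TALE homeodomain partners of Hox proteins, *Meis1* was captured in 10.9% and 8.79% and *Meis2* in 6.36% and 7.23%, with overlapping intervals. *Pbx2*, *Pbx3*, and *Pknox1* had ratios between 1.00 and 1.10, and *Cdx2* was not among the genes of the table.

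Dorsoventral factors were captured in nearly all cells through *Olig1* and *Olig2*, basic helix-loop-helix genes of ventral progenitors. *Olig2* was captured in 77.5% of *Otx2* cells and 80.4% of *Hoxa5* cells. *Olig1* was captured in 78.2% (75.4% to 80.8%) and 83.5% (82.2% to 84.7%), and in 82.6% of cells with neither gene. Its class intervals did not overlap, and its difference was −5.28 percentage points. *Pax6*, which patterns the intermediate neural tube, was captured in 10.3% (8.41% to 12.5%) and 12.1% (11% to 13.3%), *Nkx2-2* of the ventral-most progenitors in 6.58% and 7.56%, and *Irx3* in 15% and 15.2%. The Hedgehog effector *Gli3* was captured in 9.10% and 7.77%. Of 8 genes with a mean fraction of at least 5%, 0 were at least 25% higher in either class, and their median ratio was 0.970. The count of 0 lies near the shares over all genes, 2.63% in *Otx2* cells and 2.58% in *Hoxa5* cells. In XN1, with counts of 2 or more reads taken as capture, at least 1 gene of the list was in 77.7% of *Otx2* cells and 83.9% of *Hoxa5* cells, as compared with 97.1% and 98% from 1 read.

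The listed NSC genes were captured in both classes, except *Sox1*, which had no read in either. *Sox2* was captured in 51.3% and 51.7% of *Otx2* and *Hoxa5* cells, *Nes* in 54.4% and 56.0%, *Vim* in 96.1% and 96.1%, and *Fabp7* of radial glia in 82.2% and 83.3%. *Sox3*, a B1 *Sox* gene, was captured in 17.7% and 19.1%, and *Notch1* in 39.1% and 38.4%. The median ratio over 14 genes was 0.979, and 0 were at least 25% higher in either class. Over all genes compared, 2.63% were that much higher in *Otx2* cells and 2.58% in *Hoxa5* cells, near this count. Of 7 Wnt target and feedback genes with a mean fraction of at least 5%, 1, *Tcf7*, was at least 25% higher in *Otx2* cells and 0 in *Hoxa5* cells, and the median ratio was 1.06. *Axin2*, a feedback inhibitor, was captured in 5.48% and 4.71%, *Tcf7* in 6.47% and 5.10%, *Myc* in 15.4% and 17.8%, and *Ccnd1* in 92.1% and 94.5%. In the retinoic acid pathway, the receptor gene *Rarb* was captured in 13.6% and 14.3%. *Nr2f2*, a nuclear receptor of the same list, was captured in 26.9% of *Otx2* cells (24.0% to 29.9%) and 22.4% of *Hoxa5* cells (21% to 23.9%). In the cells of the normalized table alone, *Nr2f2* was in 24.1% and 23.3%.

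The classes differed in transcripts of dividing cells. *Mki67* or *Top2a*, the genes of a nuclear protein and a DNA topoisomerase that are made from S phase to mitosis, was captured in 41.9% of *Otx2* cells (38.7% to 45.2%) and 35.2% of *Hoxa5* cells (33.6% to 36.8%). The fraction was 38.1% in cells with both genes (33.6% to 42.7%) and 32.6% in cells with neither (31.6% to 33.7%). The difference between *Otx2* and *Hoxa5* cells was 6.71 percentage points. Within 20 strata of like total reads, without thinning, *Mki67* or *Top2a* was in 48.0% of *Otx2* cells and 40.7% of *Hoxa5* cells weighted to the same strata. The same weighting gave a difference of 7.13 points between *Otx2* cells and cells with neither gene, 0.181 between *Hoxa5* cells and cells with neither, and −0.875 between cells with both and cells with neither.

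All 14 genes of the G2-M list, which encode cyclins, mitotic kinases, and spindle and chromosome proteins, had a higher fraction in *Otx2* cells, as did 47.8% of all genes compared. Their median ratio was 1.205, against 0.996 over all genes, and 4 were at least 25% higher in *Otx2* cells and 0 in *Hoxa5* cells. *Tpx2*, a spindle assembly factor, was captured in 28.7% of *Otx2* cells (25.8% to 31.8%), 21.3% of *Hoxa5* cells (19.9% to 22.7%), and 17.9% of cells with neither gene. *Birc5*, a subunit of the chromosomal passenger complex, was captured in 23.5% (20.7% to 26.4%) and 17.3% (16% to 18.6%). *Mki67* was captured in 30.7% (27.7% to 33.8%) and 24.5% (23.1% to 26%), and *Hmgb2*, a chromatin protein, in 38.7% (35.5% to 42.0%) and 32.5% (30.9% to 34.2%). For *Aurka*, *Ccnb1*, *Ccnb2*, and *Cdk1*, among others, the intervals overlapped. *Otx2* cells with at least 5 of the 14 genes made up 28.7% (25.8% to 31.8%) and *Hoxa5* cells 22.6% (21.2% to 24.1%). Among cells with no read of *Mki67* or *Top2a*, 5 of the 12 G2-M genes left were higher in *Otx2* cells, and their median ratio was 0.943. This choice of cells takes dividing cells from both classes, so that ratio does not measure the excess.

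**Figure D3:**
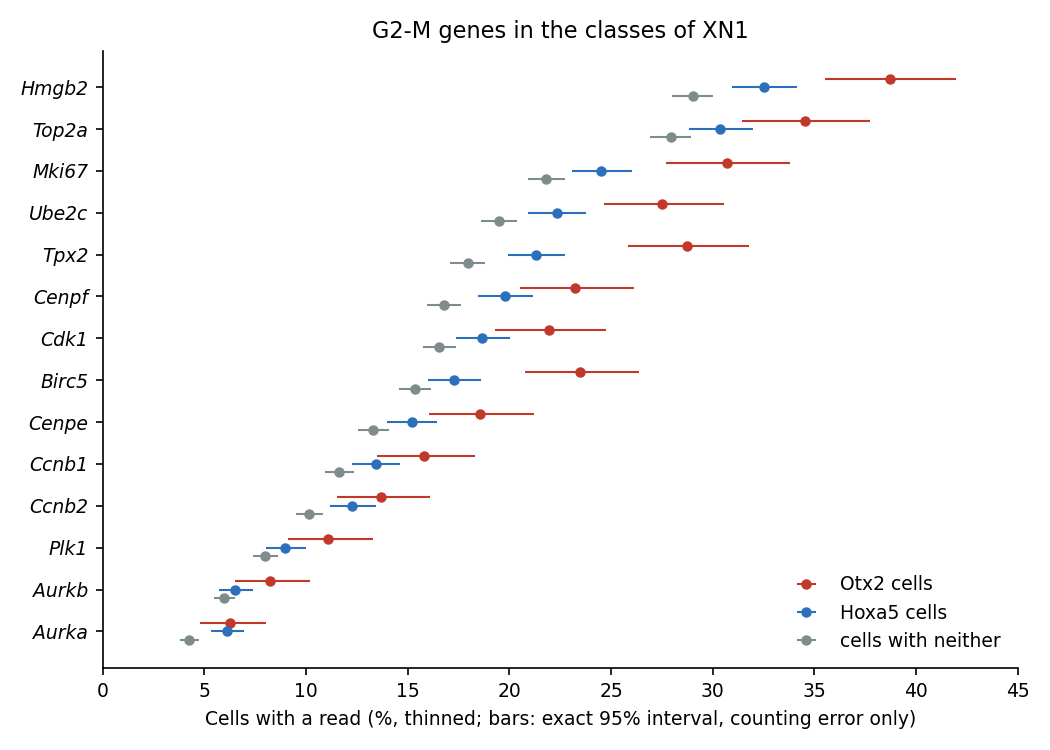
Fraction of thinned XN1 cells (in %) with a read of each of 14 G2-M genes in *Otx2* cells, *Hoxa5* cells, and cells with neither gene. Bars are exact 95% intervals for counting error. In each gene the *Otx2* cells lie to the right of the *Hoxa5* cells, which lie to the right of the cells with neither. Cells with neither were shallower before thinning. For *Mki67* or *Top2a* within strata of like total reads, *Hoxa5* cells and cells with neither differed by 0.181 points.

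S-phase genes were closer to equality. Among 11 listed genes, 9 had a mean fraction of at least 5%, and 8 of these were higher in *Otx2* cells, with a median ratio of 1.04. *Pcna*, the sliding clamp of DNA replication, was captured in 27.3% of *Otx2* cells and 25.8% of *Hoxa5* cells, and the helicase gene *Mcm5* in 13.5% and 13.2%. *Rrm2*, a subunit of ribonucleotide reductase, had the largest ratio of the list, with 21.4% (18.8% to 24.2%) and 17.8% (16.5% to 19.1%). At least 1 S-phase gene was captured in 54.7% and 52.3% of the classes.

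The difference in *Mki67* or *Top2a* had the same direction at each depth. In 5 groups of all XN1 cells ordered by reads, without thinning, the fraction in *Otx2* cells was 37.3%, 42.9%, 38.3%, 50.9%, and 60.4% from the shallowest to the deepest group. In *Hoxa5* cells it was 26.3%, 31.7%, 35.8%, 40.4%, and 58.1%. *Otx2* cells were above *Hoxa5* cells in each of the 5 groups, while the intervals were apart in the fourth group and overlapped in the others. Among *Otx2* cells with 1 *Otx2* read the thinned fraction was 40.7% (36.9% to 44.5%), and with 2 or more reads 45.3% (38.9% to 51.8%). Among *Hoxa5* cells it was 33.4% (31.5% to 35.5%) with 1 *Hoxa5* read and 38.4% (35.6% to 41.3%) with 2 or more. The cells with 2 or more reads of their marking gene were also deeper before thinning, with medians of 7122 against 6481 reads in *Otx2* cells and 7310 against 6496 in *Hoxa5* cells.

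**Figure D4:**
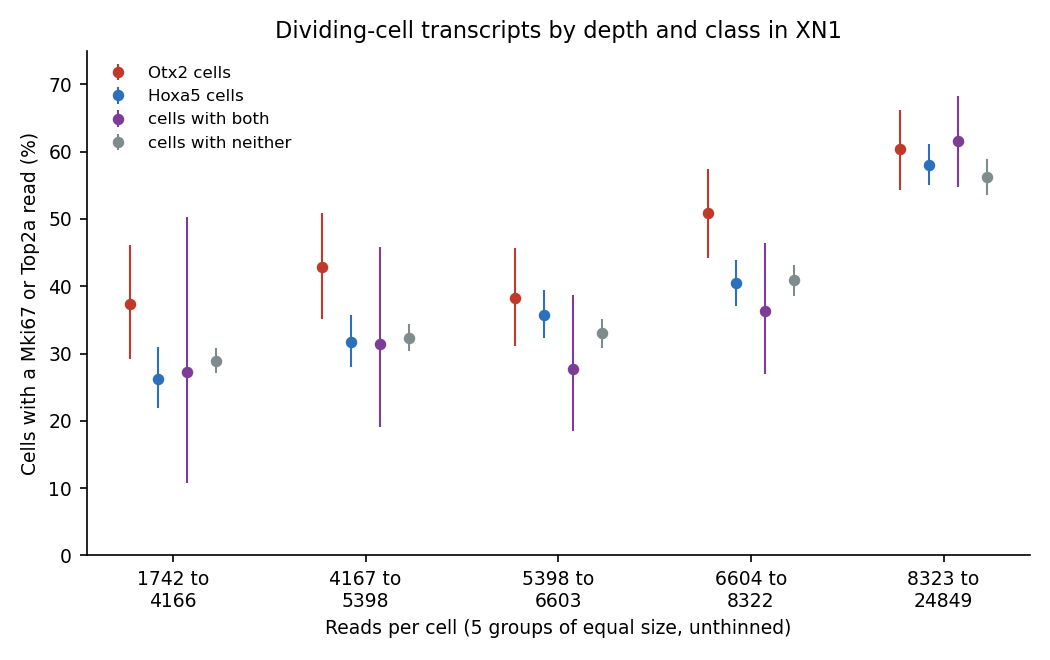
Fraction of XN1 cells (in %, unthinned) with a *Mki67* or *Top2a* read in 5 groups of equal size ordered by reads per cell, for *Otx2* cells, *Hoxa5* cells, cells with both genes, and cells with neither. Bars are exact 95% intervals for counting error. The *Otx2* cells lie above the *Hoxa5* cells in each group, and all classes are highest in the deepest group.

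To place this difference, *Mki67* or *Top2a* was counted in cells with a read of each of 16 other region genes that were captured in 5% to 30% of XN1 cells. These sets of cells overlap and share 1 library. The thinned fraction ranged from 31.4% in cells with *Cnpy1* to 48.2% in cells with *Gli3*. It was 46.4% in cells with *Pax6*, 44.7% with *Hoxa3*, and 40.8% with *Hoxa4*. All cells with *Otx2*, including those with *Hoxa5*, stood at 40.6% (38.0% to 43.3%), the sixth of 18 genes, next to *Hoxa4* above and *Otx1* at 39.7% below, with overlapping intervals. All cells with *Hoxa5* stood at 35.5% (34.0% to 37.1%), between *Irx2* and *Irx3*. These sets were chosen by reads of the region gene before thinning. A separate count took only the reads of *Otx2* and *Hoxa5* left after thinning. By that count, *Otx2* was captured in 7.20% of thinned cells with *Mki67* or *Top2a* (6.45% to 8.02%) and 5.66% of those without (5.17% to 6.18%). *Hoxa5* was captured in 18.5% (17.4% to 19.7%) and 19.1% (18.3% to 20.0%). Within 20 strata of total reads, without thinning, cells with *Otx2* exceeded cells without by 4.33 points in *Mki67* or *Top2a* (rank 5 of 18). For *Hoxa5* this difference was −0.799 (rank 15). Over the 16 other genes it ranged from −4.61 to 12.1, and for *Irx1* it was −0.827 as compared with 2.63 after thinning. In CN4, *Mki67* or *Top2a* was captured in 70.0% of cells with a *Hoxa5* read (69.1% to 70.8%) and 59.3% without (58.2% to 60.5%). Within 20 strata of total reads, without thinning, it was in 79.2% and 75.5% of these CN4 cells. The same contrast in XN1, all cells with a *Hoxa5* read against all without, gave 35.5% and 33.6% after thinning and 42.2% and 43.0% within strata, in opposite directions.

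**Figure D5:**
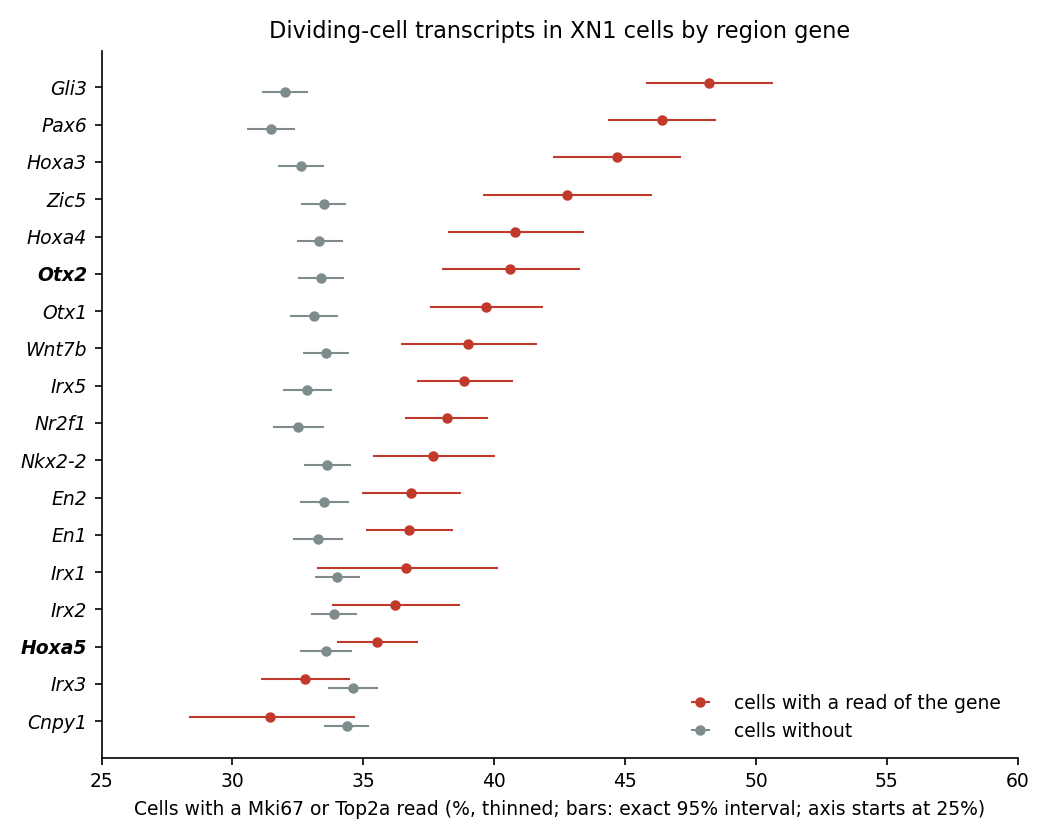
Fraction of thinned XN1 cells (in %, axis from 25%) with a *Mki67* or *Top2a* read among cells with and without a read of each region gene. Bars are exact 95% intervals for counting error. *Otx2* is the sixth of 18 genes and *Hoxa5* the sixteenth, while *Gli3*, *Pax6*, and *Hoxa3* lie above both.

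Genes of G2 and mitosis often carry CCAAT boxes and a cell cycle homology region, TTTGAA, before their start. Both motifs were searched on both strands in the 250 bases before each RefSeq start, each motif by itself, also where they share letters. Of 14 G2-M genes, 12 were matched. CCAAT was found in 11 of these 12 and TTTGAA in 6, as compared with 33.8% and 16% of 32851 windows of all genes. Of the 4 windows of *Otx2*, 1 held CCAAT and 0 held TTTGAA, and the single *Hoxa5* window held CCAAT and no TTTGAA. The windows of the genes that defined dividing cells are shown with the motifs in capitals (GRCm38.p6, minus strand, 5′ to 3′).
Mki67, chr7:135716380-135716629: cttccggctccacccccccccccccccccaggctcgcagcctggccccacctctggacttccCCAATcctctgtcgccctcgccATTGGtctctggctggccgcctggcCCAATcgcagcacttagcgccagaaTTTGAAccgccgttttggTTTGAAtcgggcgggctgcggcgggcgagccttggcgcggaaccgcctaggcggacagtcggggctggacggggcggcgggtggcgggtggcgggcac
Top2a, chr11:99024190-99024439: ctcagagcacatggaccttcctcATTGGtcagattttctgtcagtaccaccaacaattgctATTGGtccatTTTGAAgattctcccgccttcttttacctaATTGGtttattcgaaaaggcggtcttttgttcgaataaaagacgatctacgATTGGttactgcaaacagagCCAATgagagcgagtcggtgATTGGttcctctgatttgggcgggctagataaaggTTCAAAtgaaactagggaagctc
A match describes the letters only and is not evidence that a factor binds there.

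Among all genes, the largest ratio toward *Otx2* cells was that of *Zwilch*, of a kinetochore complex, which was captured in 6.91% of *Otx2* cells (5.35% to 8.75%) and 4.11% of *Hoxa5* cells (3.46% to 4.84%), a ratio of 1.68. *Cdkn3*, a phosphatase acting on cyclin-dependent kinases, was captured in 7.89% and 4.77%, *Tk1*, the thymidine kinase of S phase, in 9.10% and 5.94%, and *Esco2*, which acetylates cohesin, in 7.79% and 5.25%. The spindle gene *Tacc3* (15% and 10.1%) and the kinetochore gene *Knl1* (13.7% and 9.36%) followed. *Ccdc85a* (10.7% and 6.45%) and *Steap4*, a metalloreductase gene (11.8% and 7.62%), were also among the 15 genes, with *Zfp346*, *Sh3bp5l*, *Etaa1*, *Paqr3*, *Brcc3*, *Abhd15*, and *Elmsan1*. Except for *Zfp346*, the class intervals of the genes named without fractions overlapped. The 15 genes were ranked on these same fractions, and several, such as *Zwilch* and *Cdkn3*, were below 5% in *Hoxa5* cells. They passed the filter on the mean fraction through the *Otx2* cells. At a mean fraction of at least 10%, 0 genes were past 1.5 times in *Otx2* cells. The 15 ratios also depended on the random thinning. With the expected fraction over all thinnings the 15 ratios ranged from 1.16 to 1.53, and 1 of them, that of *Cdkn3*, was past 1.5 times.

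Toward *Hoxa5* cells, the largest ratio was that of *Pfkfb3*, a regulator of glycolysis, captured in 4.28% of *Otx2* cells (3.06% to 5.80%) and 7.74% of *Hoxa5* cells (6.86% to 8.70%), or 1.81 times. *Acvr1*, a type I receptor for BMP, was captured in 6.80% and 10.7%, *Gramd3* in 4.93% and 8.58%, and *Nol4l* in 5.26% and 8.28%. Others were *3110082I17Rik*, *Shroom2*, *Sugp1*, *Hddc3*, *Ppp1r18*, *Noc3l*, *Ngly1*, *E130309D02Rik*, *Zfp943*, and *Faap20*. For *E130309D02Rik*, *Zfp943*, and *Faap20* the class intervals overlapped. Several of the 15 genes, such as *Pfkfb3* and *Gramd3*, were below 5% in *Otx2* cells and passed the filter through the *Hoxa5* cells. At a mean fraction of at least 10%, 0 genes were past 1.5 times in *Hoxa5* cells. Over all thinnings, the expected ratios of these 15 genes ranged from 1.13 to 1.49 toward *Hoxa5* cells, and 0 were past 1.5 times.

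Markers of other cell types were also read in the classes. *Aldoc*, a glycolytic enzyme gene high in astrocytes, was captured in 19.3% of *Otx2* cells (16.8% to 22.0%), 25.8% of *Hoxa5* cells (24.3% to 27.3%), and 24.5% of cells with neither gene. Its difference of −6.45 percentage points was −8.26 within strata of total reads and −7.30 among cells with no *Mki67* or *Top2a* read. *S100b*, of a calcium-binding protein, was captured in 4.93% and 6.45% of *Otx2* and *Hoxa5* cells, *Aldh1l1* in 15.2% and 16.7%, *Gja1* in 21.6% and 20.1%, *Slc1a2* in 23.8% and 22.9%, and *Gfap* in 2.30% and 2.64%. Of 5 astrocyte genes with a mean fraction of at least 5%, 3 were higher in *Hoxa5* cells, 2 of them, *Aldoc* and *S100b*, by at least 25%, and 2 were higher in *Otx2* cells. Their median ratio was 0.912. Of the mesoderm list, *Col1a2*, a collagen gene, was captured in 12.5% (10.4% to 14.8%) and 16.6% (15.4% to 17.9%), and *Foxc1* in 14.5% and 16.9%. At least 1 gene of this list was captured in 27.1% of *Otx2* cells (24.2% to 30.1%) and 32.9% of *Hoxa5* cells (31.3% to 34.5%). For the oligodendrocyte precursor list, which holds *Olig1* and *Olig2*, the fractions were 92.9% (91.0% to 94.5%) and 95.5% (94.7% to 96.1%). The neuron list (12.8% and 10.8%) and the neural crest list (49.2% and 47.9%) were higher in *Otx2* cells, with overlapping intervals. The neuronal genes *Dcx* (6.14% and 5.70%) and *Tubb3* (2.08% and 0.960%) and the receptor gene *Ednrb* of the neural crest list (43.9% and 42.1%) were read in both classes. The epiblast list was captured in 0.110% and 0.0600% of cells, and *Pou5f1* had no read in *Otx2* cells. Among cells with no *Mki67* or *Top2a* read, *Col1a2* was captured in 14.2% of *Otx2* cells and 17.8% of *Hoxa5* cells, a difference of −3.53 points. In the same cells, *Olig1* was captured in 83.0% and 86.8% (−3.85 points), and *Spry2* in 64.0% and 68.4% (−4.43 points).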

How the data were processed

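The read table of XN1 (93096507 reads, 14452 cells, 24486 genes) was used, and those of XN4 and CN4 for comparison. The authors deposited counts of reads per gene and cell, which the BD Rhapsody WTA pipeline (1.12.1) made with GRCm38 and GENCODE M19, counting intronic reads and calling putative cells by its refined method. Reads, not molecular identifiers, were counted. A second deposited table, from Seurat 4.3.0, held natural log values, and only its 3905 XN1 cell names were used. KN1 was not analysed here, and the normalized tables of XN4 and CN4 were not used.

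Each cell was thinned without replacement to 3600 reads with numpy 2.4.6, and shallower cells were left out. Cell fractions have exact (Clopper-Pearson) 95% intervals from scipy 1.17.1. The members and gene lists were chosen with earlier results of these data known. Named genes were the listed genes in at least 1% of either class and the 15 largest ratios per direction among genes with a mean fraction of at least 5%. Genes outside the list rule, such as *Emx1*, *Fgf8*, and *Hoxa9*, were named to account for listed genes with few reads. The pair *En1* and *En2*, the cells of 16 other region genes, the 5 depth groups, CN4, and the promoter motifs were examined after the data were seen. Positions came from GENCODE M21 (GRCm38). Certain items are not reported here, though list counts and fractions include them. Doublets were not removed, and strand specificity of counting was not given in the sources used here. The procedures were tested on simulated data.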

Additional observations from a re-analysis of the deposited data

How the results depend on the processing

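The numbers of genes past 1.5 times, 6 in *Otx2* cells and 17 in *Hoxa5* cells, depended on the processing. In this order, they were 2 and 0 with the expected fraction over all thinnings, 197 and 243 in cells of the normalized table, 41 and 62 in cells without *Mki67* or *Top2a*, 164 and 222 with at least 2 reads of the marking gene, 34 and 31 with classes defined on thinned reads, 98 and 84 at a mean fraction of at least 2%, 0 and 0 at 10%, 207 and 203 at a fraction at least 25% higher, and 0 and 0 at 2 times. They were 17 and 24 outside the normalized table, 4 and 5 without thinning, 8 and 3 within strata of total reads, 9 and 5 within strata of genes detected, and 8 and 8 with capture from 2 reads. The class with more such genes thus turned to *Otx2* cells within strata of either kind, with the expected fraction, with classes defined on thinned reads, at a mean fraction of at least 2%, and at 25% higher. Several settings kept far fewer cells than the 912 *Otx2* cells and 3332 *Hoxa5* cells of the main comparison. The normalized table held 248 and 982 of the cells before thinning, and 243 and 1155 thinned cells had at least 2 reads of the marking gene. With fewer cells each fraction has a larger counting error, so these gene numbers are not comparable between settings. The cause of these shifts was not tested.

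Of the list fractions, that of dorsoventral factors moved, to −6.17 percentage points with capture from 2 reads. The excess of *Mki67* or *Top2a* in *Otx2* cells stayed between 5.31 and 9.42 points under the alternatives tried. Of these, 4 were chosen after seeing the data, with 9.0 points at 2000 reads per cell, 5.78 at 5000, 6.86 without the barcodes shared with XN4 or CN4, and 6.13 for at least 5 of the 14 G2-M genes. Among cells without *Mki67* or *Top2a*, 5 of 12 G2-M genes were higher in *Otx2* cells, and the difference turned for *Ccnb1*, *Ccnb2*, *Cenpe*, *Cenpf*, *Plk1*, *Hmgb2*, and *Ube2c*. Among genes whose intervals were apart between the classes, it turned for *Esco2* (−0.105 points), *Knl1* (−0.196), *Hmgb2* (−0.174), and *Ube2c* (−0.614), and with capture from 2 reads for *Zfp346* (−0.0312). No paired analysis was possible because XN1 is 1 library. With 912 *Otx2* cells, a fraction near 2% has an interval about as wide as itself, which limits rare region genes.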
